A study of Mus musculus with 6 samples.

Results

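The PAF1 complex is an assembly of proteins that travels with RNA polymerase II (Pol II) while it transcribes a gene. Its subunits help the polymerase leave the paused state near the start of genes, keep it elongating through chromatin, and connect transcription to monoubiquitylation of histone H2B and to methylation of histone H3. The complex has been reported as a partner of Setd5, a SET domain protein, which is why its genes are of interest in a Setd5 knockdown. The genes described are Paf1, Ctr9, Leo1, Cdc73, Rtf1 and Wdr61, chosen by name from the known subunits and matched by symbol to the Ensembl identifiers of the deposited table. All 6 of them were found among its 55400 genes, and all 6 passed the expression minimum that left 12199 genes for testing, a mean of at least 1 FPKM over the 6 libraries. FPKM is a read count scaled to the exonic length of the gene and to the total of the library.

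The libraries came from mouse motor neuron progenitors, 3 labelled Setd5sh and 3 labelled control. All of them derive from C57BL/6 embryonic stem cells with the genotype label WT, were seeded on day 0 as embryoid bodies of 500 cells, and received 1 µM retinoic acid, a signal for hindbrain and spinal cord fate, and 0.5 µM SAG, an agonist of the Sonic hedgehog pathway that directs cells to ventral fates, from day 2. Both groups were given doxycycline at 1 µg/mL in the last 36 h and were harvested on day 4. The labels do not spell out what the name Setd5sh stands for, whether control cells carried another hairpin, how many clones were used, or whether replicates were separate cultures, so p-values measure the spread between these libraries, which may be technical. Polyadenylated RNA was sequenced, and in such bulk samples fewer cells of a type and less RNA per cell cannot be told apart.

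Total counts ran from 19639303 to 32046466 reads per library. Control replicate 1, the deepest, stood apart from the other 5 by GC content across the whole table and had 26505 genes with a count, against 20979 to 23637 in the others. For the subunit genes and the list genes named further on, values without it are given where its removal turned the sign or moved the log2 fold change by over 1.5 times. Motor neuron progenitor markers were present throughout, with 93.7 ± 20.4 FPKM of Olig2 in the Setd5sh group and 73.6 ± 7.04 FPKM in the control group, and Sox2 at 74.0 ± 6.47 and 74.6 ± 8.43 FPKM (mean ± SD of 3 libraries per group). The summed level of 9 progenitor markers was 356 to 416 FPKM in Setd5sh and 315 to 341 FPKM in control. Among them Neurog2 and Olig1 were higher and Sox1 lower in Setd5sh without overlap, at 9.90 ± 1.26 and 6.32 ± 0.370 FPKM for Neurog2, 20.4 ± 3.57 and 13.9 ± 2.77 FPKM for Olig1, and 24.7 ± 3.52 and 27.7 ± 0.319 FPKM for Sox1. Groups that did not overlap were found for 5.21% of all tested genes, in either direction. The edgeR adjusted p over all genes was 0.995 for Neurog2, for Olig1 and for Sox1. Of 11 neuron markers, 5 passed the expression minimum. Their summed level over all 11 was 57.6 to 77.1 FPKM in Setd5sh and 46.7 to 49.3 FPKM in control, led by Tubb3 at 46.4 ± 13.7 and 20.8 ± 4.68 FPKM, while Chat and Isl2 were near 0. Without Tubb3 the sum was 22.0 to 27.1 FPKM in Setd5sh and 20.6 to 31.0 FPKM in control, and Mnx1 was at 9.77 ± 6.44 and 14.9 ± 6.81 FPKM. The summed level of 8 pluripotency markers was 10.5 to 65.8 FPKM in Setd5sh and 20.3 to 88.8 FPKM in control, most of it from Dppa5a, and Pou5f1 was at 2.12 ± 2.71 and 3.91 ± 3.82 FPKM. Of 10 fibroblast markers, relevant because the stem cells were grown on fibroblast feeders, the sum was 9.32 to 11.1 FPKM in Setd5sh and 7.35 to 10.7 FPKM in control, with Lum and Postn near 0, Col1a1 at 1.37 ± 0.961 and 1.79 ± 0.849 FPKM, and Col1a2 at 5.93 ± 1.67 and 4.63 ± 1.63 FPKM. Neurog2, Olig1, Sox1, Mnx1 and Col1a2 were named after their values were seen. The part of these markers in the results below was not tested.

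Setd5, the gene named in the group label, was measured first as a check of the labels. Its level was 14.4, 13.5 and 12.9 FPKM in Setd5sh replicates 1, 2 and 3, and 22.2, 18.8 and 16.7 FPKM in control replicates 1, 2 and 3. Every Setd5sh library was below every control library, which among the tested genes held for 2.14%. The PAF1 complex genes were therefore measured in cells whose mean Setd5 mRNA was 70.6% of the control mean, a partial reduction with a log2 fold change of -0.51 and an edgeR adjusted p of 0.995 over all genes. Without control replicate 1 the log2 fold change of Setd5 was smaller, at -0.36.

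No such separation was seen for the subunit genes. In Setd5sh the level of Paf1, Ctr9, Leo1, Cdc73, Rtf1 and Wdr61 was 111%, 100.3%, 96.6%, 84.2%, 95.2% and 94.0% of control, and the Setd5sh and control libraries overlapped for every one of them. Summed over the 6 genes, Setd5sh libraries averaged 83.4 ± 4.50 FPKM and control libraries 83.6 ± 5.53 FPKM (SD, n = 3 each; exact permutation test, two-sided, p = 1.0). By edgeR's quasi-likelihood test, with Benjamini-Hochberg adjustment over all genes, 0 of the 6 passed an adjusted p of 0.05, where 0.0% of the 12199 tested genes passed. At an unadjusted p under 0.05 the count was 0 of 6, against 1.22% of tested genes, and groups that did not overlap were found for 0 of 6, against 5.21% of tested genes in either direction. With the replicate number as a block the unadjusted count was 0 of 6, against 2.69% of tested genes, and with DESeq2 it was 0 of 6, against 1.81%. The count of members at an adjusted p under 0.05 was also 0 in DESeq2, where 0.0% of the 12199 tested genes passed, and in limma.

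**Figure D1:**
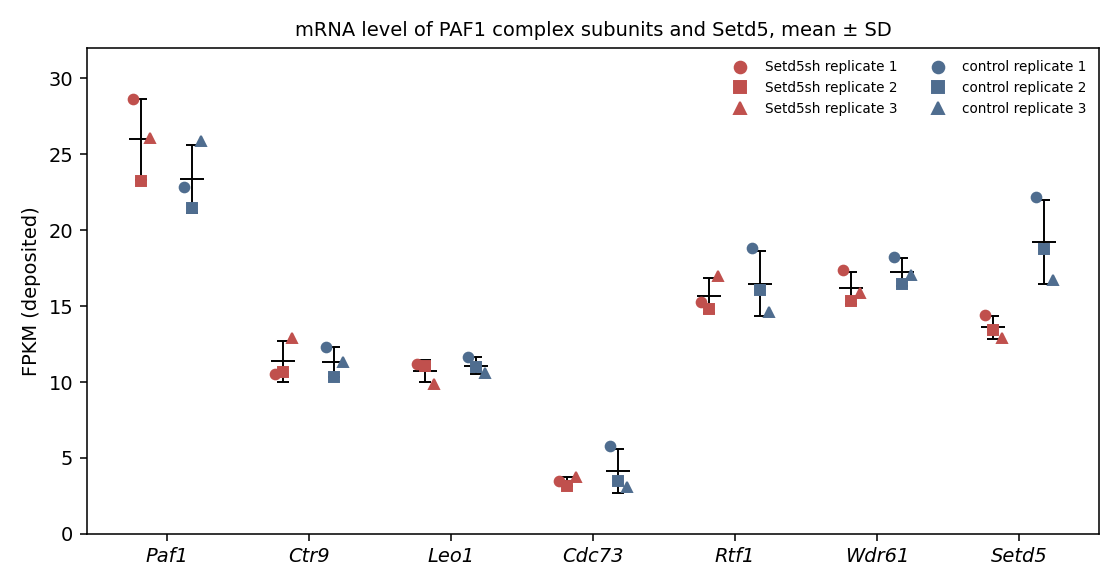
Deposited FPKM of the 6 PAF1 complex genes and of Setd5 in each Setd5sh library (red, left) and control library (blue, right), with symbols for the replicate number and black bars for the mean ± SD of 3 libraries. The groups overlap for all 6 subunit genes and are apart for Setd5, and control replicate 1 stands above the other libraries for Cdc73, at 5.76 FPKM.

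Paf1, which forms a heterodimer with Leo1 at the core of the complex, had the highest level of the 6 genes. The gene (ENSMUSG00000003437) occupies chromosome 7, bases 28392951 to 28399388 of the plus strand, in mm10 coordinates. It was measured at 28.6, 23.3 and 26.1 FPKM in Setd5sh replicates 1, 2 and 3, and 22.8, 21.5 and 25.9 FPKM in control replicates 1, 2 and 3. Setd5sh replicate 1 was the highest library and control replicate 2 the lowest, with the other 4 between them and the groups overlapping. With TMM scaling Paf1 was the only member with a positive log2 fold change, 0.14 (SE 0.16, 95% interval -0.22 to 0.51; edgeR adjusted p = 0.995). Within pairs of the same replicate number the log2 difference was 0.29, 0.14 and -0.0004, so that it was absent from the third pair. The labels do not give this pairing. Permuting the group names over the libraries gave an exact two-sided p of 0.2, where 0.1 is the smallest value that 3 against 3 allows.

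Leo1 (ENSMUSG00000042487, chromosome 9, 75441524 to 75466432, plus strand), the partner of Paf1 in that heterodimer, was the steadiest of the 6. Its level was 11.2, 11.1 and 9.87 FPKM in Setd5sh replicates 1, 2 and 3, and 11.7, 10.97 and 10.6 FPKM in control replicates 1, 2 and 3. The libraries of both groups were interleaved, with Setd5sh replicate 3 the lowest. The log2 fold change was -0.06 (SE 0.14, 95% interval -0.39 to 0.27; edgeR adjusted p = 0.995), and the SD of its log2 level over the 6 libraries was 0.10.

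Ctr9 (ENSMUSG00000005609, chromosome 7, 111028951 to 111056377, plus strand) encodes the large scaffold subunit, built of tetratricopeptide repeats, on which the others assemble. Its level was 10.5, 10.6 and 12.9 FPKM in Setd5sh replicates 1, 2 and 3, and 12.3, 10.4 and 11.3 FPKM in control replicates 1, 2 and 3. The highest library was a Setd5sh library and the lowest a control library, and the group means were 11.4 ± 1.33 and 11.3 ± 0.990 FPKM. The log2 fold change was -0.01 (SE 0.16, 95% interval -0.38 to 0.36; edgeR adjusted p = 0.999). This value is so near 0 that its sign turned under 8 of the 9 other settings that kept all libraries.

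Rtf1 (ENSMUSG00000027304, chromosome 2, 119675068 to 119735407, plus strand) encodes the subunit whose histone modification domain stimulates H2B ubiquitylation, and in human cells it is held less tightly than the rest. Its level was 15.3, 14.8 and 17.0 FPKM in Setd5sh replicates 1, 2 and 3, and 18.8, 16.0 and 14.6 FPKM in control replicates 1, 2 and 3. Control replicates 1 and 3 were the highest and the lowest of all 6 libraries, so the control group spanned the Setd5sh group. The log2 fold change was -0.08 (SE 0.16, 95% interval -0.45 to 0.29; edgeR adjusted p = 0.995), and it was 0.06 without control replicate 1.

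Wdr61 (ENSMUSG00000061559, chromosome 9, 54714735 to 54734519, minus strand) encodes a WD40 repeat protein that, in human cells, is shared with the SKI complex, a helicase that feeds mRNA to the cytoplasmic exosome. Its level was 17.4, 15.4 and 15.9 FPKM in Setd5sh replicates 1, 2 and 3, and 18.3, 16.4 and 17.0 FPKM in control replicates 1, 2 and 3. Between libraries of the same replicate number it was lower in Setd5sh each time, by 0.11, 0.07 and 0.11 on the log2 scale. Setd5sh replicate 1 stood above control replicates 2 and 3, so this depends on which libraries are paired. The log2 fold change was -0.10 (SE 0.14, 95% interval -0.43 to 0.23; edgeR adjusted p = 0.995; exact two-sided permutation p = 0.3). Exons of Wdr61 and of Dnaja4, a gene on the opposite strand, share 1581 bases, of 4669 exonic bases in Wdr61. The sources used here do not give whether counting used strand, so reads in the shared bases cannot be assigned to either gene. Dnaja4 had 109 to 239 counts per library, against 1456 to 2731 for Wdr61.

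Cdc73 (ENSMUSG00000026361, chromosome 1, 143598800 to 143702893, minus strand) encodes parafibromin, the subunit known in humans as a tumour suppressor of the parathyroid gland. Its level was 3.50, 3.16 and 3.75 FPKM in Setd5sh replicates 1, 2 and 3, and 5.76, 3.50 and 3.11 FPKM in control replicates 1, 2 and 3. Control replicate 1 stood apart, and the other 5 libraries lay between 3.11 and 3.75 FPKM with the groups mixed. The log2 fold change was -0.27 (SE 0.26, 95% interval -0.87 to 0.33; edgeR adjusted p = 0.995), and it was 0.10 without control replicate 1. The exact permutation p was 0.9 (two-sided). The pairs went different ways, with log2 differences of -0.76, -0.12 and 0.26 for pairs 1, 2 and 3.

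Without control replicate 1 the log2 fold changes were 0.16 for Paf1, 0.096 for Ctr9, 0.017 for Leo1, 0.098 for Cdc73, 0.064 for Rtf1 and -0.018 for Wdr61. The adjusted p stayed at or above 0.997 for all 6 (edgeR).

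The intervals over all 6 libraries state how large a difference the data allow. As folds of Setd5sh over control, the 95% intervals ran from 0.858 to 1.42 for Paf1, 0.770 to 1.28 for Ctr9, 0.762 to 1.21 for Leo1, 0.730 to 1.22 for Rtf1 and 0.742 to 1.17 for Wdr61. For Cdc73 the interval was wider, from 0.549 to 1.25, and its lower end is below the fold of Setd5. The interval of Setd5 itself ran from 0.538 to 0.911, and the lower end of each member's interval lies inside it. The counts behind the values were 939 to 3453 reads per gene and library, for which counting error alone gives a coefficient of variation of 1.70% to 3.26%. The members' SDs over the 6 libraries were larger than that, 0.10 to 0.36 on the log2 scale. Their median SD was 0.16, against 0.26 for all tested genes and 0.23 for the 6211 tested genes with a mean FPKM in the members' range. The median size of the log2 fold change without its sign was 0.092 for the 6 genes and 0.15 for all tested genes.

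**Figure D2:**
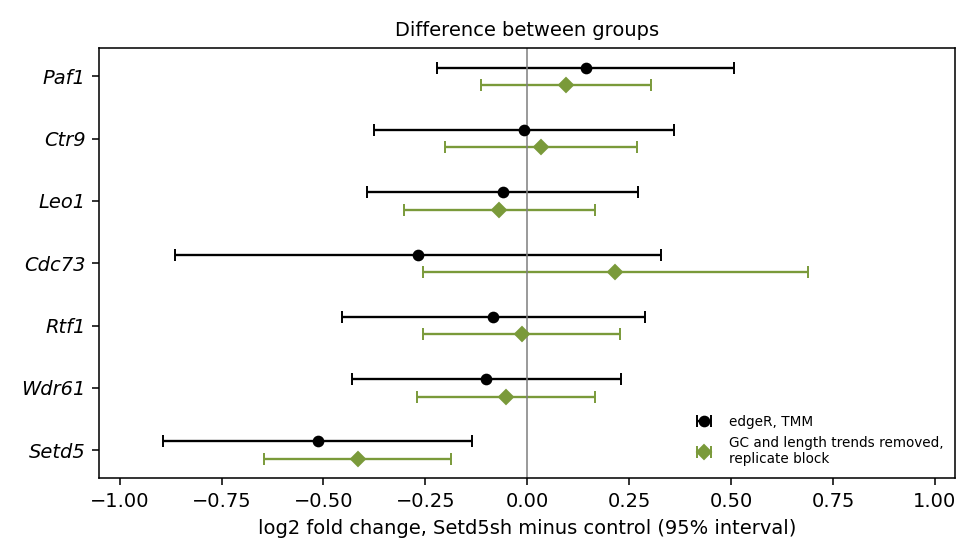
Log2 fold change (Setd5sh minus control) of each PAF1 complex gene and of Setd5 with its 95% interval, in the edgeR fit with TMM scaling (black circles) and in the fit that takes out trends on GC content and length and has a replicate block (green diamonds). All intervals of the 6 subunit genes include 0, and Cdc73 is at -0.27 in the first fit and at 0.22 in the second.

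Cdc73 differed from the other members in what its mRNA is made of. The longest transcript of Cdc73 was 36.8% G and C, with only 1.2% of tested genes lower, and its exonic length of 17613 bases exceeded that of 99.0% of them. The longest transcripts of the other 5 genes were 47.6% to 52.8% G and C. The coding sequence of Cdc73, at 44.3%, was closer to that of Paf1, at 51.7%, than the whole transcript was. The 3' untranslated region was 9721 bases long with 34.4% G and C in Cdc73, and 138 bases long with 41.3% in Paf1. The coding exons that hold the middle base of each coding sequence are shown as examples, with G and C in capitals (GENCODE release M21, GRCm38/mm10, 5′ to 3′ on the strand of the gene). The Paf1 exon is coding exon 10 of 14, at chr7:28396610-28396726 on the plus strand, and the Cdc73 exon is coding exon 8 of 17, at chr1:143671330-143671428 on the minus strand.
Paf1: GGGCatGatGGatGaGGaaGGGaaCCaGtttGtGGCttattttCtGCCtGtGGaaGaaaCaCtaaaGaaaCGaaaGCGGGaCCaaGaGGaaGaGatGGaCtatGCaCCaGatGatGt
Cdc73: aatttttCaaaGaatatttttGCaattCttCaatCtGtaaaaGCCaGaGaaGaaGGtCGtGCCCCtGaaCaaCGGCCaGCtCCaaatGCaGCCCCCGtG
The Paf1 exon was 47.0% and the Cdc73 exon 44.4% G and C, a smaller difference than that between the whole transcripts. It was also smaller than that between the coding sequences, at 51.7% and 44.3%, so these exons understate the difference in composition.

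Control replicate 1 differed from the other 5 libraries by GC content across the whole table, and the part of this in its Cdc73 value was not tested. Across 12190 tested genes, each library's log2 deviation from the gene's mean had a Spearman correlation with GC content of 0.32, 0.59 and -0.18 in Setd5sh replicates 1, 2 and 3, and of -0.65, 0.27 and 0.44 in control replicates 1, 2 and 3 (a description across genes, which are not independent replicates). The 691 tested genes under 40% G and C, a limit set after the data were seen, had a median deviation of 0.97 in control replicate 1 and of -0.30 to 0.028 in the other 5 libraries. The deviation of Cdc73 in control replicate 1 was 0.69, below the median of those low-GC genes. Control replicate 1 was the highest library for 31.9% and the lowest for 36.7% of all tested genes, by FPKM. It had the highest FPKM for 4 of the 6 members, namely Leo1, Cdc73, Rtf1 and Wdr61, and by TMM-scaled level also for Ctr9, at a deviation of 0.185 against 0.183 in Setd5sh replicate 3.

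With only the replicate number added as a block, the log2 fold change of Cdc73 was -0.21 (SE 0.22). In a fit that also took out each library's smooth trends on GC content and length, it was 0.22 (SE 0.20, 95% interval -0.26 to 0.69, edgeR adjusted p = 0.760). Control replicate 1 then stood lowest for Cdc73, at -0.61 from the gene's mean, where it had stood highest at 0.69. The other 5 members stayed between -0.07 and 0.09 in that fit, and the ends of their intervals ran from -0.302 to 0.303. The log2 fold change of Setd5 was -0.42 (SE 0.095) there. It was -0.50 (SE 0.13) with the block alone and -0.51 (SE 0.16) with neither. With the trends removed, Setd5 remained lower in every Setd5sh library. Of 15 alternative settings, the sign of the Cdc73 difference turned in this one and in the one without control replicate 1, and the lowest edgeR adjusted p of Cdc73 over all of them was 0.581.

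**Figure D3:**
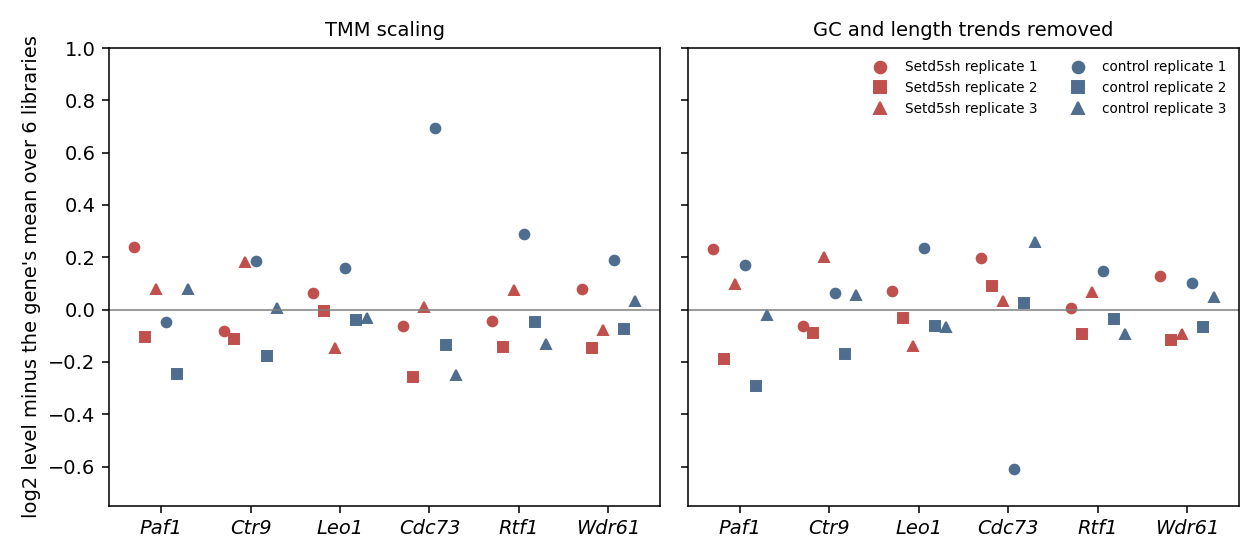
Log2 level of each PAF1 complex gene in each library minus the gene's mean over the 6 libraries, with TMM scaling (left) and after removal of each library's trends on GC content and length (right), for Setd5sh (red) and control (blue). Control replicate 1 is at 0.69 for Cdc73 on the left and at -0.61 on the right, while the other 5 genes stay within 0.30 of 0 in both panels.

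The share of each gene in the summed level of the 6 was compared next. Paf1 made up 31.1% ± 1.76 of the summed FPKM of the 6 genes in Setd5sh and 28.0% ± 3.01 in control, Wdr61 19.4% ± 0.758 and 20.6% ± 0.256, and Rtf1 18.8% ± 1.10 and 19.7% ± 1.75 (SD, n = 3 each). Ctr9 made up 13.6% ± 1.46 in Setd5sh and 13.5% ± 0.342 in control, Leo1 12.9% ± 1.29 and 13.3% ± 0.573, and Cdc73 4.16% ± 0.200 and 4.88% ± 1.38. Wdr61 had shares of 20.1%, 19.6% and 18.6% in Setd5sh replicates 1, 2 and 3, and of 20.4%, 20.9% and 20.6% in control replicates 1, 2 and 3, with every Setd5sh library below every control library (exact two-sided permutation p = 0.1, the smallest that 3 against 3 allows). The FPKM of Wdr61 overlapped, as did the shares of the other 5 genes. With 6 shares compared, a permutation p of 0.1 for Wdr61 was not taken as a difference. Shares have no background over all tested genes. The shares are a description, since they sum to the whole and a higher share of Paf1 is in part the lower share of the others. Cdc73 reached 6.43% in control replicate 1 and 3.77% to 4.44% in the other 5 libraries.

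By FPKM over the 6 libraries the order of the genes was Paf1, with a mean of 24.7, Wdr61 at 16.7, Rtf1 at 16.1, Ctr9 at 11.3, Leo1 at 10.9 and Cdc73 at 3.80 FPKM. Paf1 was first and Cdc73 last in every library, and the step between Rtf1 and Ctr9 also held in 6 of 6 libraries without overlap of their ranges. The neighbours Wdr61 and Rtf1 kept their order in 4 of 6 libraries and Ctr9 and Leo1 in 3 of 6, so neither pair differed beyond its spread.

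That order depended on the length by which the authors divided. The deposited exonic lengths count every annotated exon of a gene, retained introns included. For Leo1 that is 4846 bases where its protein-coding transcript has 2180, and for Ctr9 8000 where its protein-coding transcript has 4300. Per kilobase of the longest protein-coding transcript, a scale chosen after the data were seen, Paf1 stayed first with a mean of 42.4 and Cdc73 last with 5.77, in the same unit as FPKM. Leo1 was then second at 24.2, Wdr61 at 23.1, Ctr9 at 21.1 and Rtf1 at 19.8, with each neighbour in this middle group overlapping the next. Wdr61 has 5 protein-coding transcripts of 784 to 3372 bases, so its place depends on which of them is counted. Cdc73 was lower than the next gene by 2.03-fold to 3.50-fold in FPKM and by 2.64-fold to 3.79-fold per coding transcript, depending on the library. Its last place also depends on length, since both scales count its annotated 3' untranslated region of 9721 bases. Before division by length, Cdc73 had more reads than Leo1 in every library. Whether the whole annotated region was present in these mRNAs was not tested.

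**Figure D4:**
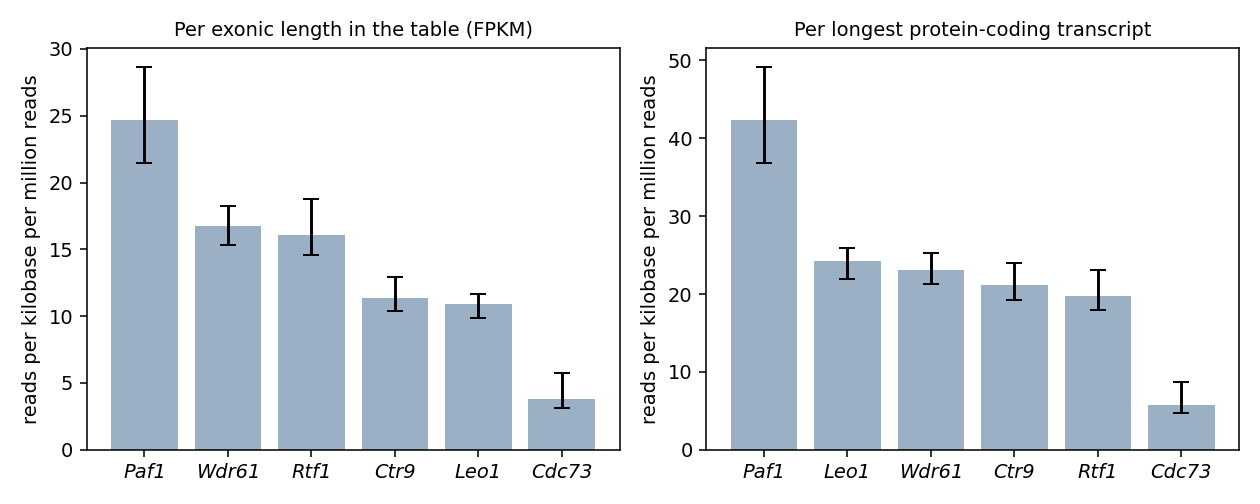
Mean level of each PAF1 complex gene over the 6 libraries per kilobase of the exonic length in the deposited table (left, FPKM) and per kilobase of its longest protein-coding transcript (right), with whiskers from the lowest to the highest library. Paf1 is highest and Cdc73 lowest on both scales, while Leo1 has rank 5 on the left and rank 2 on the right. Both scales count the long 3' untranslated region of Cdc73.

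The genes around the complex were described by 6 lists with 87 tested genes. Of these, 53 had a positive and 34 a negative log2 fold change, where 5197 of the 12199 tested genes had a positive one, with a median of 0.034 against -0.043 for all tested genes and -0.072 for the 6 subunits. None passed the adjusted threshold in edgeR, DESeq2 or limma, where 0.0% of all tested genes passed in edgeR and in DESeq2. In edgeR 2 of 87 had an unadjusted p under 0.05, against 1.22% of all tested genes. For 6 (6.90%) the groups did not overlap, against 5.21% of all tested genes.

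Factors that act on the same elongating polymerase had log2 fold changes with a median of 0.016 over 26 tested of 28 genes, 14 of them positive. Supt6, a histone chaperone that rides with Pol II beside the PAF1 complex, stood at 43.9, 37.4 and 37.7 FPKM in Setd5sh replicates 1, 2 and 3, and 32.9, 35.2 and 34.1 FPKM in control replicates 1, 2 and 3. All Setd5sh libraries were above all control libraries, which held for 3.07% of tested genes, with a log2 fold change of 0.21 (SE 0.14; edgeR adjusted p = 0.995, as for each gene named from here on unless another is given). Mllt1, a reader protein of the super elongation complex, stood 0.31 (SE 0.16) higher on the log2 scale in Setd5sh, also without overlap. Ssrp1, a subunit of the histone chaperone FACT, had 0.23 (SE 0.17) with overlapping groups. Ell2, an elongation factor of the super elongation complex, had the smallest p of this list, 0.0414 unadjusted in edgeR. Its level was 0.867 ± 0.252 FPKM in Setd5sh and 1.39 ± 0.297 FPKM in control, with no overlap of the groups. The log2 fold change of Ell2 was -0.70 (SE 0.29). It was -0.48 without control replicate 1 and -0.40 in the fit without the GC and length trends. Tcea2, a form of the factor that rescues backtracked polymerase, had -0.68 (SE 0.32) and Mllt3, a paralog of Mllt1, -0.46 (SE 0.30). Without control replicate 1 Mllt3 was at -0.047.

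The P-TEFb, CDK12 and CDK13 kinases, which act on Pol II, with their cyclins and regulators, had a median of 0.086 over 11 genes, 7 of them positive. The cyclin gene Ccnk showed a log2 difference of 0.12 (SE 0.17) and Mepce, an enzyme that caps the inhibitory 7SK RNA, 0.15 (SE 0.22). The P-TEFb cyclin genes Ccnt2 and Ccnt1 had -0.49 (SE 0.37) and -0.28 (SE 0.23), and the 7SK-binding gene Larp7 -0.27 (SE 0.29). For Ccnt2 control replicate 1 was at 14.96 FPKM, and the other 5 libraries were at 4.99 to 7.71 FPKM. Without that library the log2 fold changes were 0.11 for Ccnt2, -0.0059 for Ccnt1, 0.16 for Larp7, -0.044 for Mepce and 0.066 for Ccnk.

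The 13 subunit genes of Pol II had a median of 0.074, with 10 positive. Polr2a, which encodes the largest subunit with the C-terminal repeats, averaged 82.4 ± 11.7 FPKM in the Setd5sh group and 64.7 ± 6.60 FPKM in the control group, with 0.34 (SE 0.18) as its log2 fold change. The groups overlapped, since Setd5sh replicate 2, at 69.7 FPKM, was below control replicate 3, at 71.1 FPKM. Polr2m, whose product associates with Pol II, had 0.16 (SE 0.15) and Polr2d 0.15 (SE 0.16), while Polr2k had -0.42 (SE 0.36), Polr2b -0.10 (SE 0.26) and Polr2c -0.01 (SE 0.21; adjusted p = 0.999). Without control replicate 1 the values were 0.081 for Polr2m, 0.098 for Polr2d, -0.16 for Polr2k, 0.19 for Polr2b and -0.19 for Polr2c.

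Writers and erasers of H2B ubiquitylation, the mark that Rtf1 promotes, had a median of -0.10 over 11 genes, with 5 positive and 6 negative. Rnf40, a subunit of the H2B ubiquitin ligase, averaged 22.1 ± 0.601 FPKM in the Setd5sh group and 19.6 ± 3.33 FPKM in the control group, with 0.17 (SE 0.15) as its log2 fold change. Usp22 and Atxn7l3, of the deubiquitylating module of the SAGA complex, had 0.13 (SE 0.17) and 0.17 (SE 0.15). The module's small subunit gene Eny2 had -0.27 (SE 0.28), the conjugating enzyme gene Ube2b -0.16 (SE 0.20) and the deubiquitylase gene Usp44 -0.28 (SE 0.24). Without control replicate 1 the values were 0.073 for Rnf40, 0.0082 for Usp22, 0.072 for Atxn7l3, 0.14 for Eny2, 0.043 for Ube2b and -0.0034 for Usp44, and the median of the list was 0.12 in the fit without the GC and length trends.

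Methyltransferase genes linked to the complex, with their partners, had a median of 0.057 over 12 genes, 8 of them positive. Setd1b, which encodes a catalytic subunit of an H3K4 methyltransferase, stood at 8.45, 7.17 and 8.21 FPKM in Setd5sh replicates 1, 2 and 3, and 6.14, 5.81 and 6.35 FPKM in control replicates 1, 2 and 3. The groups did not overlap, the log2 fold change was 0.37 (SE 0.14) and its unadjusted p in edgeR 0.0333, and the fold change was 0.36 in the fit without the GC and length trends. Cxxc1 and Wdr82, which belong to the same enzyme complex, had 0.18 (SE 0.15) and 0.20 (SE 0.16), with overlapping groups. Rbbp5, named after its values were seen because its groups did not overlap either, had 0.11 (SE 0.14). Setd2, the gene of an H3K36 methyltransferase, had -0.45 (SE 0.41), the H3K79 methyltransferase gene Dot1l -0.04 (SE 0.13) and its partner gene Mllt10 -0.12 (SE 0.21). Setd2 was at 14.9 FPKM in control replicate 1 and at 5.05 to 7.39 FPKM in the other 5 libraries, and without that library the log2 fold change was 0.25 for Setd2, 0.12 for Mllt10 and 0.0018 for Dot1l.

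Wdr61's other complex and the exosome gave a median of 0.049 over 14 tested of 15 genes, 9 of them positive. Exosc2, Exosc10 and Exosc4, of the exosome, had log2 fold changes of 0.19 (SE 0.14), 0.20 (SE 0.16) and 0.24 (SE 0.20), and only for Exosc2 among these 3 did the groups not overlap. Ttc37, which encodes the scaffold of the SKI complex, had -0.65 (SE 0.39), the exosome subunit gene Exosc9 -0.28 (SE 0.31) and the nuclease gene Dis3 -0.21 (SE 0.27). Ttc37 was at 2.09, 2.06 and 1.97 FPKM in Setd5sh replicates 1, 2 and 3, and at 5.33, 2.18 and 1.90 FPKM in control replicates 1, 2 and 3. Without control replicate 1 the log2 fold changes were 0.031 for Ttc37, 0.21 for Exosc9, 0.17 for Dis3 and 0.071 for Exosc4.

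Across the 6 lists the genes with a negative log2 fold change had a median GC content of 44.0% and those with a positive one 52.9%. The median for all tested genes, not split by sign, was 50.04%. Control replicate 1 was the lowest library for 42 (48.3%) and the highest for 29 (33.3%) of the 87 genes, against 36.7% and 31.9% of all tested genes. The part of GC content in the lists was not tested.

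**Figure D5:**
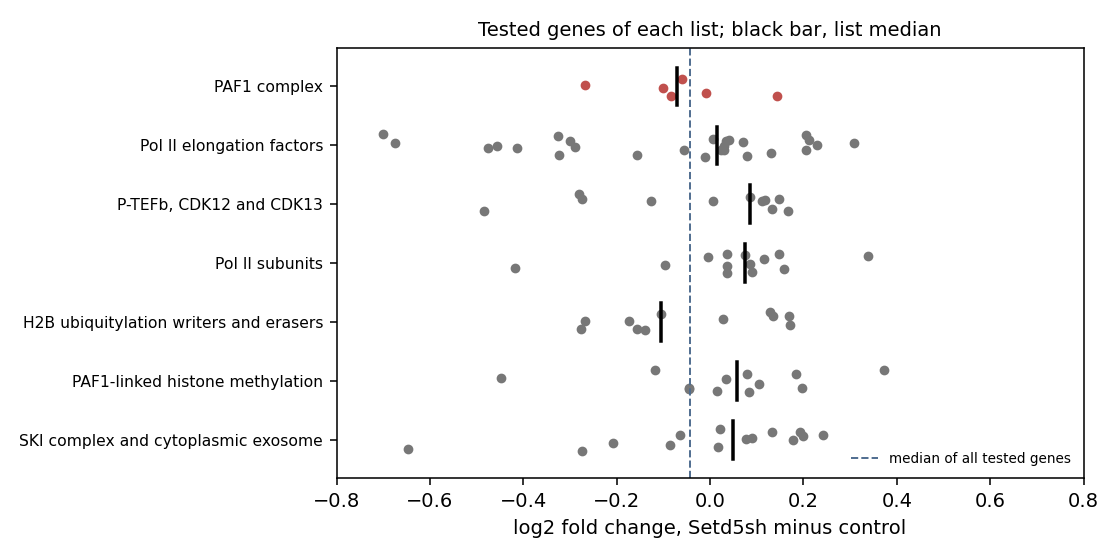
Log2 fold change (Setd5sh minus control) of each tested gene in the PAF1 complex (red) and in 6 lists of related genes (grey), with the median of each list as a black bar and the median of all tested genes as a dashed line. The 6 subunit genes lie between -0.27 and 0.14, and the medians of the other lists lie between -0.10 and 0.086.

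The genes whose pattern over the 6 libraries was most like the mean of the 6 subunits were Lrpprc, Pbk, Pkp4, Dhx29 and Hdlbp, among 5093 other tested genes with a mean of at least 10 FPKM. The root mean square difference between their centred log2 levels and the members' mean was 0.019 for Lrpprc, 0.021 for Pbk, 0.027 for Pkp4, 0.030 for Dhx29 and 0.032 for Hdlbp. The same measure was 0.062 for Rtf1, 0.064 for Wdr61, 0.091 for Ctr9, 0.099 for Leo1, 0.17 for Paf1 and 0.21 for Cdc73. Paf1 and Cdc73 were thus furthest from the members' mean, of which each member is itself a part. With TMM scaling, control replicate 1 deviated from the gene's own mean by 0.69 for Cdc73 and -0.046 for Paf1. The deviations of Rtf1, Wdr61, Ctr9 and Leo1 in that library were 0.29, 0.19, 0.185 and 0.16. There the mean log2 level of the 6 genes was 0.22 above the control mean. It was 0.007, -0.15 and -0.006 in Setd5sh replicates 1, 2 and 3, and -0.15 and -0.07 in control replicates 2 and 3. With GC and length trends removed it was 0.11, -0.05 and 0.05 in Setd5sh replicates 1, 2 and 3, and 0.04, -0.08 and 0.05 in control replicates 1, 2 and 3.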

How the data were processed

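The authors deposited a table with a raw read count, an FPKM value and the exonic length per gene. Per the submitters' processing notes, the build is mm10 and the tools include HISAT2, SAMtools, HTSeq and DESeq2, with no versions. The annotation and strand setting are not named in any source used here. The deposited FPKM equals the count scaled to that length in kilobases and to the column total, to within 0.005, so depth is known. The deposited lengths equal the union of GENCODE M21 exons for 99.0% of matched genes, and 99.5% of identifiers had a symbol. Each gene's GC content is that of its longest transcript.

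Counts were tested with edgeR 4.0.16 in R 4.3.3 (TMM scaling, quasi-likelihood, genes with a mean of at least 1 FPKM, adjusted p of 0.05, two-sided), with DESeq2 1.42.0 and limma 3.58.1, on log2(FPKM + 1) and log2(FPKM + 0.1), as alternatives. GC and length trends were smooths from mgcv 1.9.3. Figures used matplotlib 3.10.9.

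Members and lists were chosen with earlier results of these data known. Genes were named by rule: the members, Setd5, up to 3 genes per list and direction by smallest p, 5 markers (Olig2, Sox2, Tubb3, Pou5f1, Col1a1) and the 5 most alike in pattern. A gene that this rule names is not reported here. Replicate numbers are shared by both groups. Same-numbered libraries deviated together from their group means, with correlations across genes of 0.185, 0.69 and 0.127 for numbers 1, 2 and 3, so the numbers were taken to pair them, from the data and not the labels; Setd5sh replicate 3 correlated more with control replicate 1, at 0.191.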

Additional observations from a re-analysis of the deposited data

How the results depend on the processing

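The count of members at an adjusted p under 0.05 was 0 under all 15 alternatives, and the replicate block alone changed no call. Of all tested genes 0.0% were called with that block, with DESeq2 and with GC and length trends removed. With no filter on low values 73 of 29462 genes (0.248%) were called, against 0 of 12199 with it. None of the 73 was a member. Tubb3 was among them, with a log2 fold change of 1.2153, against 1.1502 with the filter. In that setting the log2 fold change was 0.0624 for Ctr9, 0.0101 for Leo1, 0.0454 for Polr2c, 0.0234 for Dot1l, 0.0444 for Sox2, 0.0163 for Lrpprc, 0.0060 for Pbk, 0.0311 for Pkp4, 0.0274 for Dhx29 and 0.0278 for Hdlbp, all negative with the filter, and the median of the P-TEFb list was 0.1654, against 0.0859. The median over all genes that passed the filter was 0.023 in that setting and -0.043 with the filter. The cause of these changes was not tested.

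Ctr9 and Polr2c, both near 0, also turned positive with RLE size factors (0.0033 and 0.0070), filterByExpr (0.0178 and 0.0151), DESeq2 (0.0032 and 0.0070) and limma on log2(FPKM + 1) (0.0016 and 0.0320) or log2(FPKM + 0.1) (0.0015 and 0.0365). Ctr9 was at 0.0011 with total count scaling, Polr2c at 0.0276 with the replicate block, and Sox2 at 0.0060 with filterByExpr. With GC and length trends removed and that block, values turned positive for Ctr9 (0.0339), Cdc73 (0.2163), Polr2b (0.0132), Polr2k (0.0289), Ube2b (0.0654), Eny2 (0.1124), Exosc9 (0.0519), Dis3 (0.0188), Lrpprc (0.0392), Pbk (0.1153) and Hdlbp (0.0051), and the median of the H2B list was 0.1195, against -0.1041. The median over all tested genes was 0.022 in that fit, against -0.043 with TMM scaling alone. The part of this shift in the turned signs was not tested. By coding transcript length the ranks of Leo1, Rtf1 and Wdr61 were 2, 5 and 3, since only the length changed.

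Leaving out each library in turn gave log2 fold changes of 0.054 to 0.26 for Paf1, -0.11 to 0.096 for Ctr9, -0.11 to 0.017 for Leo1, -0.44 to 0.098 for Cdc73, -0.16 to 0.064 for Rtf1 and -0.17 to -0.018 for Wdr61. The highest values for Ctr9, Leo1, Cdc73 and Rtf1 came without control replicate 1. The ranks of Ctr9 and Leo1 ran from 4 to 5. Ranges that included both signs were found for Ccnt2 (-0.79 to 0.11), Larp7 (-0.45 to 0.16), Mepce (-0.044 to 0.33), Polr2b (-0.28 to 0.19), Polr2c (-0.19 to 0.14), Ube2b (-0.28 to 0.043), Eny2 (-0.46 to 0.14), Dot1l (-0.11 to 0.0071), Mllt10 (-0.23 to 0.12), Setd2 (-0.73 to 0.25), Ttc37 (-0.91 to 0.031), Exosc9 (-0.51 to 0.21), Dis3 (-0.37 to 0.17), Sox2 (-0.053 to 0.044), Pou5f1 (-2.73 to 0.28), Col1a1 (-1.06 to 0.043), Lrpprc (-0.14 to 0.084), Pbk (-0.15 to 0.066), Pkp4 (-0.091 to 0.068), Dhx29 (-0.13 to 0.092) and Hdlbp (-0.10 to 0.054). The list medians ran from -0.11 to 0.080 for the PAF1 complex, with the highest without control replicate 1, from -0.049 to 0.052 for elongation factors, -0.028 to 0.066 for P-TEFb, -0.23 to 0.072 for H2B ubiquitylation, 0.14 to 0.51 for progenitor markers and 0.13 to 0.99 for neuron markers.

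Differences of the members that lie inside their 95% intervals are not excluded by these 6 libraries.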
